A study of Mus musculus with 46 samples.

Results

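Messenger RNA of mouse bone marrow-derived macrophages (BMDMs) was compared between 60 min and 20 min of lipid A, the membrane anchor of bacterial lipopolysaccharide (LPS) and the part of it that the receptor TLR4 recognises. The comparison rests on 4 of the 46 samples of the series: the 2 control libraries collected at 60 min and the 2 collected at 20 min, chosen by those labels and not by any measured value. They belong to an early time course of 18 libraries, 2 per group, that also holds control cells at 0 min and cells given ACBI1, BRM014 or BRDK98 at 20 and 60 min. SWI/SNF complexes remodel chromatin with the ATPase SMARCA2 or SMARCA4. ACBI1 makes cells degrade both ATPases and the subunit PBRM1, whereas BRM014 blocks their catalytic activity and leaves the proteins in place. For BRDK98 only the code name is used. The controls are labelled WT and carry no compound per their labels, which name no vehicle, mouse strain, sex, age or dose. Libraries of 2 other experiments served for comparison: WT cells before and 1 hr after lipid A, and Arid1a f/f cells, which carry a floxed Arid1a gene and are labelled as controls, before and 1 hr after LPS, with 4 libraries each. Nothing in the labels tells if replicate libraries came from different cultures or mice, so p-values measure the spread between these samples, which may be technical.

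Levels are in TPM, the authors' length-normalised read shares, and a difference is the mean log2(TPM + 1) at 60 min minus that at 20 min, given ± its standard error (n = 2 and 2). Differences were tested with limma across all 18 libraries for the 11549 of 25124 listed genes with at least 1 TPM in at least 2 libraries, and p is adjusted by the Benjamini-Hochberg method over all of them. A gene rose or fell where adjusted p was under 0.05, with the same sign, on TPM as deposited and on TPM rescaled by a median-ratio factor. The 20 min libraries held 27527263 and 22725903 exonic reads and the 60 min libraries 22487679 and 18755371, so that 3 reads on a 2 kb transcript correspond to 0.065 to 0.097 TPM. Such a floor covers counting error only. Replicates differed with an SD of 0.134 at 20 min and 0.141 at 60 min on the log2 scale.

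TLR4 signals through the adaptors MyD88 and TRIF to the NF-kB, MAP kinase and IRF3 pathways. Immediate early genes, which need no new protein, are transcribed within minutes, and many cytokine, chemokine and feedback genes follow as NF-kB enters the nucleus and is then restrained by newly made IkB proteins. Type I interferon made in response to TRIF and IRF3 later acts back on the cells and drives a further set of antiviral genes.

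Between 20 and 60 min, 848 genes rose (7.34% of those tested) and 1942 fell (16.8%), while 8759 passed in neither direction. By a log2 difference of at least 1 on both scalings, 379 rose (3.28%) and 468 fell (4.05%). The genes that rose made up 8.12% and 7.86% of listed TPM in the 20 min libraries and 26% and 25.5% in the 60 min libraries, and the genes that fell went from 6.88% and 7.01% to 3.49% and 3.6%. The 10 genes that gained most TPM were Ccl4, Tnf, Cxcl2, Ccl3, Il1b, Zfp36, Ccl2, Sdc4, Cxcl10 and Cd14, which together held 0.594% and 0.548% of TPM at 20 min and 6.94% and 6.68% at 60 min. The median gene moved by -0.30 on the log2 scale as deposited and by -0.0046 after rescaling, which centres the median by construction. TPM are shares of a total, and the cause of the shift was not tested. On deposited TPM alone 848 genes were higher and 5788 lower (12.8% of calls higher), and on rescaled TPM alone 1718 were higher and 1942 lower (46.9%). Both 60 min libraries lay above both 20 min libraries for 11.8% of tested genes and below for 72.7%, on TPM as deposited. In bulk RNA, fewer cells of a kind and less of a transcript per cell cannot be told apart.

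**Figure D1:**
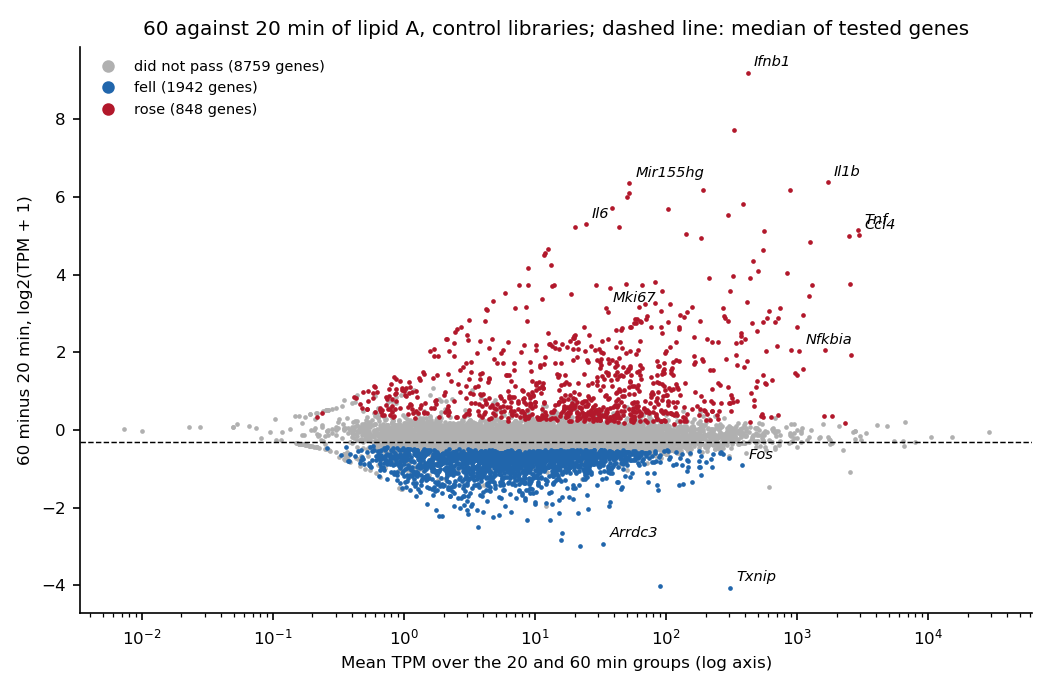
Difference of each tested gene between 60 and 20 min of lipid A (vertical, log2 of TPM + 1) against its mean TPM over the 4 libraries (horizontal, log axis). Red points are the 848 genes that rose, blue points the 1942 that fell and grey points the 8759 that passed in neither direction. The dashed line marks the median of all genes, -0.30.

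Cytokine genes were nearly all higher at 60 min. Of 28 listed, 23 rose, none fell, 3 did not pass (Il18, Tgfb1 and Tnfsf10) and 2 were under the filter, and the median difference of the 26 tested was 2.46. The largest difference of any named gene was that of Ifnb1, the first type I interferon of the response: it was at 0.398 and 0.418 TPM at 20 min, from 7 and 6 reads, and at 988 and 688 TPM at 60 min, 9.20 ± 0.15 on the log2 scale (adjusted p = 2.9e-14). Both 60 min libraries stood far above both 20 min libraries, and the 0 min libraries were at 0.167 and 0.273 TPM.

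Interleukin-1 genes followed. Il1a, an alarmin that cells also release on damage, was at 1.73 and 2.53 TPM at 20 min and 624 and 695 TPM at 60 min (7.73 ± 0.14, adjusted p = 5.9e-14). Il1b, the secreted pyrogen processed by the inflammasome, was at 42.7 and 37.2 TPM at 20 min and 3466 and 3311 TPM at 60 min (6.38 ± 0.13, adjusted p = 2.3e-13). Il1b had already risen between 0 and 20 min (1.42) and Il1a had not passed there (0.58); both sets of 60 min libraries lay above all 20 min libraries. Each gene overlaps an antisense transcript (Gm14023 and Il1bos), and reads were counted on both strands, so a part of these reads cannot be assigned to one strand. Il1rn, the natural antagonist of the IL-1 receptor, rose as well, from 20.4 and 19 TPM to 195 and 192 TPM (3.23 ± 0.07).

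Tnf, the early inflammatory cytokine, had risen by 20 min and went further. It was at 18.9 and 16.6 TPM at 0 min, 160.2 and 158 TPM at 20 min and 5672 and 5684 TPM at 60 min, so the 3 times did not overlap, and its 60 minus 20 min difference was 5.15 ± 0.08 (adjusted p = 2.9e-14) beside 3.10 between 0 and 20 min. Tnfsf9, the ligand of the co-stimulatory receptor 4-1BB, went from 24.5 and 21.8 TPM to 1713 and 1767 TPM (6.18 ± 0.13), with an opposite-strand transcript, Gm11110, overlapping it. Il10, the main anti-inflammatory cytokine, went from 41.4 and 34.7 TPM to 644 and 567 TPM (3.96 ± 0.21, adjusted p = 1.3e-08). In all 3 genes both 60 min libraries were above both 20 min libraries.

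The IL-6 and IL-12 families were hardly detected at 20 min. Il6 was at 0.308 and 0.188 TPM at 20 min, from 8 and 4 reads, and at 55.3 and 41.6 TPM at 60 min (5.30 ± 0.14, adjusted p = 2.4e-12). Il12b, the shared p40 subunit of IL-12 and IL-23, was at 0.0700 and 0.129 TPM, from 4 and 6 reads, and then at 42 and 37.9 TPM (5.22 ± 0.10). Il23a, the p19 subunit of IL-23, was at 0.032 and 0.079 TPM and then at 23.2 and 24.2 TPM (4.55 ± 0.10). At 20 min these genes rested on 1 to 8 reads per library, so their starting level, and with it the fold, is known only loosely, while their 60 min levels do not overlap it. A total of 16 risen genes were under 1 TPM in both 20 min libraries and at 10 TPM or more in both 60 min libraries, a group formed after the values were seen. Besides Ifnb1, Il6, Il12b and Il23a it held the growth factor gene Csf2 (0 and 0.052 TPM, then 15.9 and 19.2 TPM), the small GTPase gene Gem (0.485 and 0.475 TPM, then 73.3 and 81 TPM) and the protease inhibitor gene Serpinb2 (0.089 and 0 TPM, then 27.1 and 23.4 TPM). It also held Ifna2, at 0 and 0.094 TPM and then 28.7 and 17.7 TPM, which has near-identical relatives and is less certain. Nos2, the inducible nitric oxide synthase, was not in this group: it was at 0.023 and 0.014 TPM at 20 min and 0.127 and 0.034 TPM at 60 min, at or near the floor in all 4 libraries (0.08 ± 0.11, adjusted p = 0.53).

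**Figure D2:**
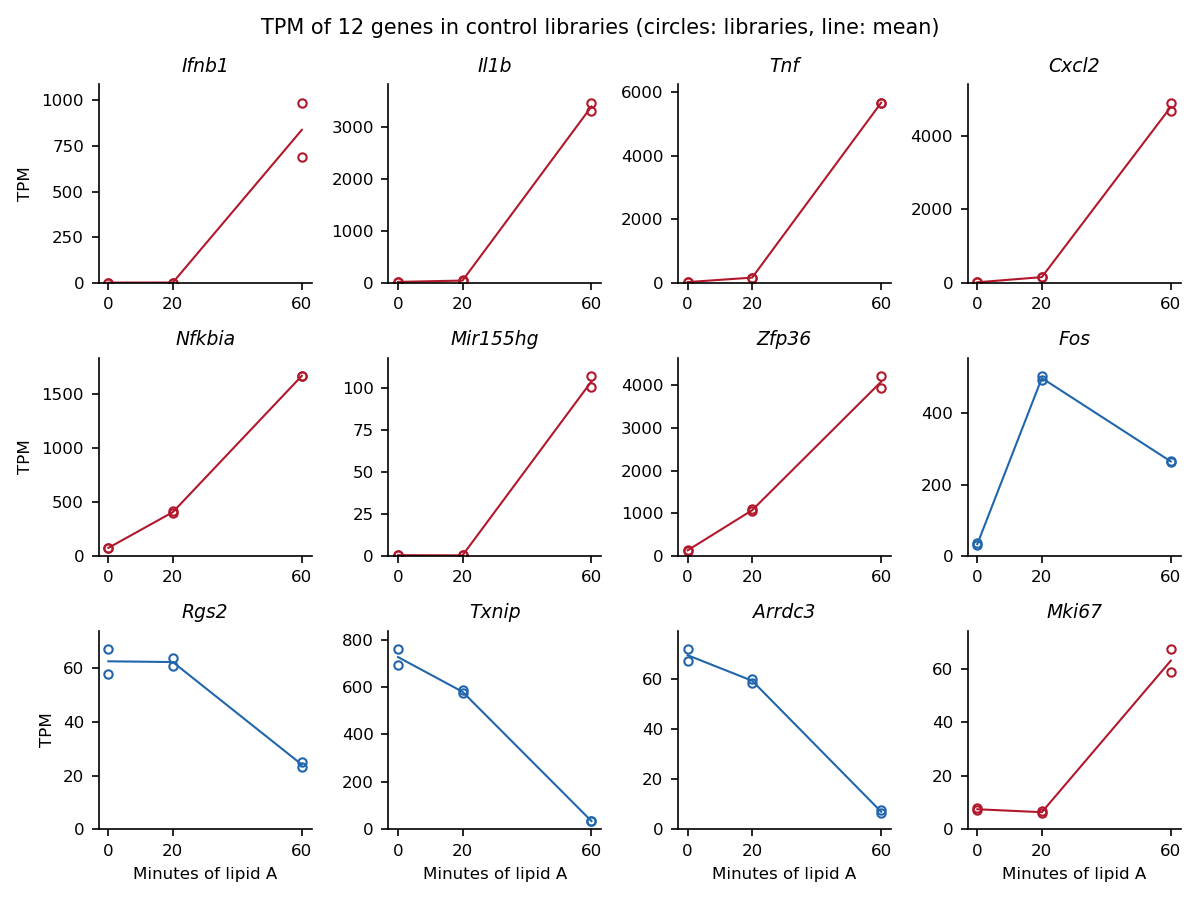
TPM (vertical, own scale per panel) of 12 genes in control macrophages at 0, 20 and 60 min of lipid A (horizontal). Circles are the 2 libraries per time and lines join their means; red genes rose and blue genes fell between 20 and 60 min. Ifnb1 and Mir155hg leave the floor only after 20 min, Tnf, Cxcl2, Nfkbia and Zfp36 climb through both intervals, Fos is highest at 20 min, and Txnip, Arrdc3 and Rgs2 drop between 20 and 60 min.

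The promoters of Ifnb1 and Il6 are shown because these genes went from a few reads to well-measured levels. Each line gives the 250 bases before the RefSeq start (GRCm38.p6), 5′ to 3′ on the strand of the gene, with matches to the searched motifs in capitals. The Ifnb1 window, chr4:88522795-88523044 on the minus strand, holds 1 match to the kappaB consensus, the NF-kB site, from 116 to 107 bases before the start, and TATAAA from 210 to 205 and from 82 to 77 bases before it. The Il6 window, chr5:30012864-30013113 on the plus strand, holds the kappaB consensus from 44 to 35 bases before the start and TGANTCA, the AP-1 motif, from 249 to 243 bases before it.
Ifnb1: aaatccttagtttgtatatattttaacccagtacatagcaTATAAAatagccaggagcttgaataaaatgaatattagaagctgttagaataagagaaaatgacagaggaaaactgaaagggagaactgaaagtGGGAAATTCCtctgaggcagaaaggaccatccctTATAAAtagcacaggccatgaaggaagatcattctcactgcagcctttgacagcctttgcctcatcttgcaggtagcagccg
Il6: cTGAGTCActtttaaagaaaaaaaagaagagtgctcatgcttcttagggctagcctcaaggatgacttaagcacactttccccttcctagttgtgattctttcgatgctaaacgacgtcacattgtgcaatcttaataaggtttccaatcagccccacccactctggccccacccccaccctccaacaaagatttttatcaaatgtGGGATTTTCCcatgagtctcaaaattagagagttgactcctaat
Both strands were searched for 8 motifs: the kappaB consensus, the CArG box and the interferon response motif by name, TATAAA (the TATA box), CACGTG (an E box), TGANTCA (the AP-1 site), TGACGTCA (the CREB site) and GTAAACA (the forkhead site). Of all 8812 promoters matched to tested genes, 8.77% held the kappaB consensus, 6.6% TATAAA, 4.44% TGANTCA, 3.2% the interferon response motif and 2.22% GTAAACA. Only 76.3% of tested genes matched a promoter, so a comparison of motif shares between risen and fallen genes is void and is not given. A match is a description of letters in a window and no evidence of binding.

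Chemokine genes rose throughout the list. Of 18 listed, 15 rose, the other 3 were under the filter, and the median difference was 2.87. The neutrophil attractants Cxcl1 and Cxcl2 and the CC chemokine Ccl4 differed most. Cxcl2 was at 10.6 and 8.76 TPM at 0 min, 154 and 147 TPM at 20 min and 4670.1 and 4909 TPM at 60 min (4.98 ± 0.08, adjusted p = 2.9e-14), and Cxcl1 went from 7.58 and 7.2 TPM to 270.0 and 279 TPM between 20 and 60 min (5.04 ± 0.17). Both had risen between 0 and 20 min too (3.83 and 2.75), and no 60 min library overlapped a 20 min library. Among the CC chemokines that recruit monocytes and T cells, Ccl4 went from 194 and 157 TPM to 5973 and 5459.8 TPM (5.02 ± 0.16), the highest level of the 15 at 60 min. Ccl2 went from 84.7 and 82.5 TPM to 2414 and 2441 TPM (4.84 ± 0.08), and Ccl3 from 361 and 328 TPM to 4879 and 4479 TPM (3.76 ± 0.10).

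The interferon-linked chemokines started later. Cxcl10 encodes a ligand of CXCR3 and overlaps Art3 on the opposite strand. It was at 273 and 190.4 TPM at 0 min, 226 and 184 TPM at 20 min and 2674 and 1882 TPM at 60 min (3.45 ± 0.25, adjusted p = 4.3e-07). Ccl5, which attracts T cells, was at 76.9 and 69.9 TPM at 20 min and 596 and 452 TPM at 60 min (2.81 ± 0.15, adjusted p = 5.7e-09). Neither had risen from 0 to 20 min (-0.16 and -0.51), and in both the replicate 1 library was the higher one at 60 min. Cxcl9, at 1.5 and 0.848 TPM and then 2.48 and 1.93 TPM, differed by 0.57 ± 0.19 and lost its call without 20 min replicate 2 (0.35 to 0.93 over the alternatives) or 60 min replicate 1.

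The promoters of Cxcl2 and Cxcl10 contrast a chemokine that had risen by 20 min with one that had not. In the Cxcl2 window, chr5:90903649-90903898 on the plus strand, 2 overlapping kappaB matches run from 97 to 88 and from 96 to 87 bases before the start. In the Cxcl10 window, chr5:92348890-92349139 on the minus strand, kappaB matches run from 159 to 150, 104 to 95 and 103 to 94 bases before the start, TGANTCA from 74 to 68, and the interferon response motif from 213 to 204.
Cxcl2: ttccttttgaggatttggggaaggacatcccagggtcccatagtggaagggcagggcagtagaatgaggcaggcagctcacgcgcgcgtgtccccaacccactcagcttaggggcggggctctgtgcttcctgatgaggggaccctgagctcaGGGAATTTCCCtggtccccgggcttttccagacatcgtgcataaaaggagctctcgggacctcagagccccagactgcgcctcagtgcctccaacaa
Cxcl10: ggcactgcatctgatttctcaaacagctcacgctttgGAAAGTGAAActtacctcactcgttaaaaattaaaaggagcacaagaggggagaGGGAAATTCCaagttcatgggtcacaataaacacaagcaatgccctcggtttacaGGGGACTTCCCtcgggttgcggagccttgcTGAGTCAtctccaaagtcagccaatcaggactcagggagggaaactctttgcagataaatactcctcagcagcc

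All 11 genes of NF-kB subunits and IkB proteins rose, with a median difference of 2.04. Nfkbia, which encodes IkB-alpha, the inhibitor that NF-kB itself induces, was at 71.5 and 75.4 TPM at 0 min, 398 and 411 TPM at 20 min and 1664 and 1662 TPM at 60 min (2.04 ± 0.06, adjusted p = 1.3e-11), with no overlap between times. Nfkbiz, the atypical IkB-zeta needed for secondary genes such as Il6, changed most, from 42.6 and 40.1 TPM to 1055 and 1055 TPM (4.64 ± 0.16). The IkB genes Nfkbie (2.78 ± 0.07), Nfkbid (2.85 ± 0.19) and Nfkbib (2.64 ± 0.11) and the subunit gene Rel (2.84 ± 0.14), which encodes c-Rel, differed by similar amounts, and of these only Nfkbid had risen by 20 min. Nfkb1, which encodes p50 and its precursor, differed least (0.28 ± 0.10, adjusted p = 0.029), and leaving out any 1 of the 4 control libraries removed its call.
Nfkbia: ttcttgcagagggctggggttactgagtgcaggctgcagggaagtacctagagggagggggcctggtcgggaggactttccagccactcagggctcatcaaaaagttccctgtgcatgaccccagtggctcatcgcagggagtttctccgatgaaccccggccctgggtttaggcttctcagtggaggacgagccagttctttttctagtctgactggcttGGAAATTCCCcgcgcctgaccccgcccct
This line is the Nfkbia window, chr12:55492648-55492897 on the minus strand, shown as the promoter of the gene that closes the NF-kB feedback loop; its kappaB match runs from 29 to 20 bases before the start.

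Feedback inhibitors rose beside the genes they restrain: 25 of 29 rose, 1 fell and 3 did not pass, with a median of 1.63. Tnfaip3, the ubiquitin-editing enzyme A20, was at 29.3 and 30.4 TPM at 20 min and 1051 and 1109 TPM at 60 min (5.13 ± 0.08, adjusted p = 2.9e-14). Socs3, an inhibitor of JAK-STAT signalling, was at 147 and 149.7 TPM and then 1346 and 1306 TPM (3.15 ± 0.08). Dusp1, a MAP kinase phosphatase listed among the immediate early genes, was at 246 and 256 TPM and then 1987 and 1956 TPM (2.97 ± 0.10). The 60 min libraries of all 3 lay above the 20 min libraries. The exception was Rgs2, a regulator of G protein signalling, which fell from 63.7 and 61 TPM to 25.1 and 23 TPM (-1.34 ± 0.09, adjusted p = 4.3e-08). Outside this list, and picked by its size of change, the ERK phosphatase gene Dusp6 was at 11.1 and 12.5 TPM at 0 min, 21.2 and 23.6 TPM at 20 min and 3.85 and 3.54 TPM at 60 min. It had risen by 0.87 to 20 min and differed by -2.32 ± 0.17 from 20 to 60 min, so its level at 60 min was below that at 0 min. Factors of mRNA decay moved in both directions: 6 of 29 rose and 5 fell, beside 7.34% and 16.8% of all tested genes. Zfp36 (tristetraprolin), which binds AU-rich elements of cytokine mRNAs, went from 1098 and 1045 TPM to 4226 and 3946 TPM (1.93 ± 0.10), while its relative Zfp36l2 went from 109.8 and 139.7 TPM to 48.6 and 43.5 TPM (-1.41 ± 0.24). Zc3h12c, of the Regnase family of nucleases, differed by 3.65 ± 0.17 and Zc3h12d by -1.28 ± 0.09.

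Immediate early transcription factors diverged after 20 min. Of 30 listed, 21 rose from 20 to 60 min, 2 fell, 6 did not pass and 1 was under the filter, and the median difference was 1.09. Between 0 and 20 min 16 members of the list had risen, not all of them among these 21. Fos, a subunit of AP-1, was at 31.1 and 34.9 TPM at 0 min, 505 and 492 TPM at 20 min and 262 and 267 TPM at 60 min, so it was highest at 20 min and then fell by 0.91 (± 0.13, adjusted p = 4.9e-05). Jun stood at 172 and 191 TPM at 20 min and 196 and 199 TPM at 60 min (0.12 ± 0.12, adjusted p = 0.39). Egr1 stood at 247 and 242 TPM and then 335 and 278 TPM (0.32 ± 0.16, adjusted p = 0.096) and Ier2 at 356 and 398 TPM and then 406 and 339 TPM (-0.02 ± 0.09, adjusted p = 0.85); all 3 had risen between 0 and 20 min, when 0.736% of all genes rose. On rescaled TPM alone Jun, Egr1 and Ier2 were called higher, so their call rests on the scaling, and the sign of Ier2 does too. Other members gained most after 20 min: Egr2 went from 10.1 and 10.4 TPM to 158 and 153 TPM (3.80 ± 0.11), Egr3 from 2.02 and 2.46 TPM to 36.5 and 34.1 TPM (3.49 ± 0.19) and Nr4a1 from 46.4 and 43.2 TPM to 310.0 and 322 TPM (2.79 ± 0.10). The small Maf gene Maff went from 2.94 and 2.997 TPM to 198 and 207 TPM (5.68 ± 0.10), the largest difference of the list, and Atf3, a repressor of inflammatory genes, did not pass between 0 and 20 min (-0.05) and then went from 141 and 140.5 TPM to 956 and 972 TPM (2.77 ± 0.06). Klf10, at 33.8 and 36.3 TPM and then 18.5 and 20.6 TPM (-0.81 ± 0.10), was the other member that fell.

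Surface and effector genes of activation rose in 29 of 36 cases with none falling (6 did not pass and 1 was under the filter, median 2.25). Acod1, the enzyme that makes itaconate, was at 13.3 and 11.6 TPM at 20 min and 843 and 682 TPM at 60 min (5.82 ± 0.18, adjusted p = 2.4e-11). Ptgs2, the inducible cyclooxygenase, was at 1.26 and 1.39 TPM and then 84.4 and 88 TPM (5.23 ± 0.20). The co-stimulatory receptor gene Cd40 went from 14.2 and 13 TPM to 176 and 168 TPM (3.57 ± 0.09), while Cd86 stood at 32.1 and 30.8 TPM and then 35.6 and 34.3 TPM (0.15 ± 0.07, adjusted p = 0.083; 0.0001 on rescaled TPM). No 60 min library of Acod1, Ptgs2 or Cd40 overlapped a 20 min library. Among other genes chosen by size, Errfi1, an inhibitor of EGF receptor signalling, went from 3.83 and 4.66 TPM to 347 and 411 TPM (6.18 ± 0.17) and Csrnp1, a nuclear protein, from 11.5 and 11.5 TPM to 574 and 584 TPM (5.54 ± 0.07); Csrnp1 overlaps an antisense transcript.

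Of 30 genes of the receptor complex and its proximal signalling, 9 rose, 4 fell and 17 did not pass. Their median was -0.02 beside -0.30 over all genes. Among all tested genes 7.34% rose and 16.8% fell, so the falls lie near the all-gene share. The 4 that fell became 0 without 20 min replicate 1, 1 without 20 min replicate 2 or 60 min replicate 2, and 2 without 60 min replicate 1. Cd14, the co-receptor that hands LPS to TLR4, was at 666 and 602 TPM at 20 min and 2661 and 2644 TPM at 60 min (2.06 ± 0.12), and Tlr2, the receptor of bacterial lipoproteins, went from 122 and 114 TPM to 543 and 578 TPM (2.24 ± 0.09). Tlr4 itself went from 33.9 and 32.2 TPM to 18.4 and 17.9 TPM (-0.83 ± 0.15, adjusted p = 0.00049), a call that was lost without 20 min replicate 1 or 60 min replicate 2. The adaptor genes Myd88 (0.73 ± 0.07) and Ticam1 (1.13 ± 0.10), which encodes TRIF, rose, and Tirap (-0.80 ± 0.16) and Ticam2 (-0.60 ± 0.10), the bridging adaptors, were among the 4 that fell. Ly96, which encodes the MD-2 subunit that binds lipid A, was at 22.9 and 24 TPM and then 23.9 and 24.4 TPM (0.04 ± 0.12, adjusted p = 0.77; 0.041 on rescaled TPM).

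Interferon-response and IRF genes rose in part, beside 7.34% of all tested genes rising and 16.8% falling. Of 40 listed and tested, 16 rose between 20 and 60 min, 1 fell and 23 did not pass, with a median of 0.27 beside -0.30 over all genes. In 38 of the 40 the mean TPM at 20 min was below that at 0 min, beside 56.9% of all tested genes, but 3 passed that test and 37 did not (0.364% of all genes fell there). At 60 min 13 of the 40 had a mean above 0 min, beside 17.2% of all tested genes. Irf1, a transcription factor that NF-kB induces, was at 165 and 147 TPM at 0 min, 147 and 134 TPM at 20 min and 1093 and 990.4 TPM at 60 min (2.88 ± 0.08, adjusted p = 4.9e-12). The antiviral genes Ifit1, at 251 and 168 TPM, 133 and 97.4 TPM and 428 and 257 TPM (1.54 ± 0.30 from 20 to 60 min), and Rsad2, at 459 and 299.8 TPM, 204 and 163 TPM and 772 and 514 TPM (1.78 ± 0.30), were below their 0 min libraries at 20 min and above them at 60 min. The Ifit1 call was lost when only the 4 libraries of 20 and 60 min were fitted. Mx1, another antiviral gene, did not pass: it was at 286 and 177 TPM at 0 min, 139 and 106 TPM at 20 min and 145 and 93 TPM at 60 min. Irf8, a lineage factor of macrophages, was the gene that fell, from 195 and 194 TPM to 107 and 93.2 TPM (-0.95 ± 0.09). The replicates stood apart in this list: replicate 1 was above replicate 2 for 38 of 40 genes at 0 min, 40 of 40 at 20 min and 38 of 40 at 60 min, beside 56.4%, 47.4% and 34.1% of all tested genes. Leaving out 1 control library at a time, and the other alternatives that kept both scalings, gave 11 to 19 risen genes in this list. With the replicate number as a block, 16 rose and 1 fell, as without it.

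Precursor transcripts of microRNAs, short RNAs that repress mRNAs through their seed (bases 2 to 8), were among the largest increases. The less certain Mir142 was among the 15 largest decreases. The values are reads of poly(A) RNA at the loci and not mature microRNAs. Mir155hg, the host of miR-155, an NF-kB target that tunes inflammatory signalling, was at 0.242 and 0.339 TPM at 20 min, from 7 and 8 reads, and at 101 and 108 TPM at 60 min (6.35 ± 0.10, adjusted p = 2.9e-14). The Mir221 row went from 0.464 and 0.569 TPM, 1 read in each library, to 99.8 and 106 TPM (6.10 ± 0.48), with 0 min libraries at 2.73 and 0 TPM. The Mir142 row, a blood-lineage microRNA locus, went from 17.3 and 15.3 TPM to 3.38 and 4.12 TPM (-1.86 ± 0.52, adjusted p = 0.0097). It rests on 25 and 18 reads at 20 min and 4 reads in each library at 60 min. Leaving out any 1 of the 4 libraries removed that call, as did a pseudocount of 0.1, no filter or only the 3 control groups. Mir142b overlaps it on the opposite strand, and reads were counted on both strands. The sequences are shown for these 3 loci, with the seed in capitals (RefSeq, GRCm38.p6).
mmu-miR-155-5p: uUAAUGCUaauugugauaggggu
mmu-miR-221-3p: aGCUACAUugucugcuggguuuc
mmu-miR-142a-5p: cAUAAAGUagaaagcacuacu
mmu-miR-142a-3p: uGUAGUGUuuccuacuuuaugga
miR-155-5p lies at chr16:84714143-84714165 on the plus strand, miR-221-3p at chrX:19146307-19146329 on the minus strand and miR-142a-3p at chr11:87756903-87756925 on the plus strand. No seed is shared among the 4.

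The steepest falls with non-overlapping, close replicates were those of Txnip and its antisense transcript Gm15441, followed by Arrdc3, Sik1 and Bmf. Of 1942 fallen genes, 921 had a mean of at least 10 TPM at 20 min, and if their TPM fell by a constant fraction per min over the 40 min they would have halved every 49.7 min at the median. In 239 of them TPM had halved within 40 min, 105 corresponded to a halving in 30 min or less and 20 in 20 min or less. These times are ratios of TPM, net of new synthesis and of the shift of the total, and are not half-lives. Txnip, which binds thioredoxin and limits glucose uptake, was at 760.5 and 692 TPM at 0 min, 585 and 574 TPM at 20 min and 34.8 and 32.8 TPM at 60 min (-4.06 ± 0.13, adjusted p = 2.4e-11), which corresponds to 9.76 min per halving. Its difference between 0 and 20 min, -0.32, had not passed. The antisense transcript Gm15441 on the other strand went from 169.9 and 168 TPM to 10.5 and 8.64 TPM, and the 2 loci cannot be separated in counts made on both strands.
Txnip: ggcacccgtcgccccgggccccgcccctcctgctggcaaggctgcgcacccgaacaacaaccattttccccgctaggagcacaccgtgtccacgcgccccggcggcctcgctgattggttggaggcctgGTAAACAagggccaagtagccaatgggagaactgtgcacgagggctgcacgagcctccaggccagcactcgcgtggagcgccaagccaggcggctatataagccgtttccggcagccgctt
This is the Txnip window, chr3:96557707-96557956 on the plus strand (RefSeq, GRCm38.p6), shown for the gene with the largest fall; GTAAACA, the core FOXO motif, runs from 121 to 115 bases before the start.

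Genes of the FOXO and arrestin-domain list, which growth-factor signalling through AKT commonly represses, fell in 10 of 20 cases and rose in 5 (4 did not pass, 1 was under the filter, median -0.86). Among all tested genes 16.8% fell and 7.34% rose. Arrdc3, an arrestin-like adaptor, was at 58.4 and 60.2 TPM at 20 min and 6.3 and 7.57 TPM at 60 min (-2.93 ± 0.16, 12.9 min per halving). Bmf, a pro-apoptotic BH3-only protein, was at 29 and 27.4 TPM and then 3.93 and 3.4 TPM (-2.65 ± 0.09, 13.6 min per halving). Tsc22d3 (GILZ) had fallen between 0 and 20 min (-0.58) and went on from 38 and 39.2 TPM to 11.8 and 11.1 TPM (-1.67 ± 0.10). The groups did not overlap in any of the 3 genes. The 5 that rose were Bcl6 (1.74 ± 0.08), a transcriptional repressor, Cited2 (1.55 ± 0.11), Ccng2 (1.38 ± 0.12), Irs2 (1.25 ± 0.22) and Pnrc1 (0.90 ± 0.08). Sik1, a kinase that CREB induces and that restrains CREB co-activators, went from 27.2 and 29.8 TPM to 3.19 and 3.02 TPM (-2.84 ± 0.13, adjusted p = 7.7e-10), while Sik2 and Sik3 did not pass; of the 17 genes of its list 6 rose and 1 fell.

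Rpph1, the RNA of ribonuclease P, was named by size of change but rests on 1 library. It was at 8.21 and 74.7 TPM at 20 min and 3.29 and 1.6 TPM at 60 min (-2.98 ± 0.82, adjusted p = 0.0086), and without 20 min replicate 2 its difference was -1.46, no longer past the threshold. The call was also lost without either 60 min library. Other large decreases were those of Hhex, a homeobox factor, from 33.9 and 37 TPM to 7.58 and 6.99 TPM (-2.14 ± 0.14), of Sertad3 (-2.13 ± 0.15), of Inka1 (-1.89 ± 0.12), and of Lpar6, a lysophosphatidic acid receptor gene inside Rb1, from 60.4 and 57.1 TPM to 15.2 and 13.6 TPM (-1.96 ± 0.10).

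**Figure D3:**
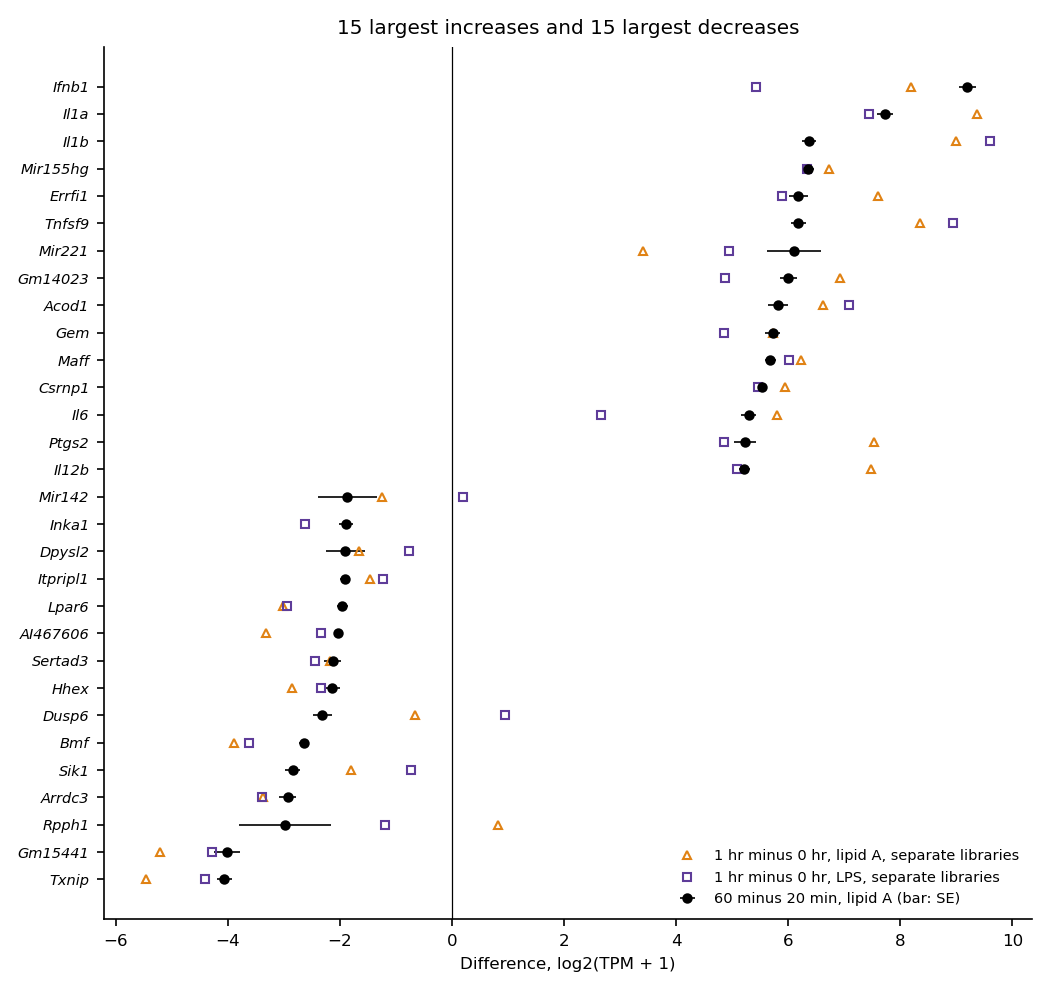
The 15 largest increases and 15 largest decreases between 60 and 20 min (log2 of TPM + 1, horizontal; bars are the standard error), chosen on those values, beside the mean difference between 1 hr and 0 hr of lipid A and of LPS in separate libraries. The increases run from 5.22 for Il12b to 9.20 for Ifnb1 and the decreases from -4.06 for Txnip to -1.86 for Mir142.

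Factors that shape macrophage identity moved in both directions. Of 41 transcription regulators 11 rose, 9 fell and 21 did not pass (median -0.23), beside 7.34% rising and 16.8% falling over all tested genes. Ets2 (2.66 ± 0.10), Id2 (1.82 ± 0.07) and Tfec (1.67 ± 0.08) rose, and so did Nfe2l2 (1.15 ± 0.07), the master factor of antioxidant genes. Cebpa, which sets myeloid fate, went from 62.6 and 72.7 TPM to 22.7 and 23.1 TPM (-1.52 ± 0.12), and Maf, a factor of resident-type macrophages, from 246 and 259.5 TPM to 119 and 108 TPM (-1.15 ± 0.11). Spi1, which encodes PU.1, stood at 271 and 308 TPM and then 255 and 237 TPM (-0.23 ± 0.08, not past the threshold on rescaled TPM). Cebpb differed by 0.48 ± 0.18, from 63 and 103 TPM to 123 and 103 TPM, with the replicate 2 libraries about equal. It lost its call without 20 min replicate 1 or 60 min replicate 1. The call was also lost with no filter, only the 3 control groups, only the 20 and 60 min controls, or without the BRM014 libraries.

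Surface receptors also moved in both directions, with 10 of 43 rising, 6 falling, 26 not passing and 1 under the filter (median -0.14). Over all tested genes 7.34% rose and 16.8% fell, so the falls lie near the all-gene share. Clec4e (Mincle), a sensor of mycobacterial glycolipid, went from 57.9 and 50.0 TPM to 492 and 479 TPM (3.15 ± 0.08), Adora2b, an adenosine receptor, from 1.21 and 1.66 TPM to 16.2 and 15.5 TPM (2.80 ± 0.15), and Gpr84, a receptor of medium-chain fatty acids, from 11.1 and 11.4 TPM to 71.1 and 73.1 TPM (2.57 ± 0.09). Cxcr4, the receptor of CXCL12 that holds cells in the marrow, went the other way, from 126 and 135 TPM to 42 and 46.2 TPM (-1.55 ± 0.09, adjusted p = 7.7e-09), and P2ry6, a UDP receptor, from 219 and 231 TPM to 129 and 127 TPM (-0.81 ± 0.08). Csf1r, the receptor of the growth factor that maintains macrophages, was at 2032 and 2049 TPM and then 1620.0 and 1626 TPM (-0.33 ± 0.07), close to the all-gene median, and did not pass after rescaling (adjusted p = 0.93). Among LXR targets 1 of 15 rose (Mylip, 0.70 ± 0.16) and 3 fell (Abcg1, -1.10 ± 0.08; Arl4c, -0.83 ± 0.09; Scd2, -0.72 ± 0.12, a call lost without 20 min replicate 2), and the cholesterol exporter gene Abca1 stood at 156 and 179 TPM and then 132 and 162 TPM (-0.19 ± 0.28, adjusted p = 0.58).

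Zinc finger genes gave the most falls of any list. In the list of 30, 21 fell and 4 rose (median -1.01); of all 262 tested genes whose symbol is Zfp and a number, a broader group that mostly encodes C2H2 DNA-binding proteins, 181 fell (69.1%, beside 16.8% of all tested genes), 10 rose (3.82%, beside 7.34%) and 71 did not pass. Their median difference was -0.81 as deposited and -0.59 after rescaling, beside -0.30 and -0.0046 over all genes, and their median between 0 and 20 min was -0.10 beside -0.030. Zfp748 went from 4.47 and 4.34 TPM to 0.312 and 0.451 TPM (-1.97 ± 0.13), Zfp729b from 6.81 and 6.19 TPM to 1.39 and 1.59 TPM (-1.59 ± 0.15) and Zfp790 from 3.92 and 4.04 TPM to 0.698 and 0.939 TPM (-1.46 ± 0.12). Zfp719, at 1.72 and 1.55 TPM and then 8.83 and 9.99 TPM (1.98 ± 0.13), and Zfp263, at 56.7 and 52.9 TPM and then 160.2 and 163 TPM (1.54 ± 0.06), were among those that rose. These are low transcripts, with a median of 4.25 TPM over the group at 20 min and 1.64 TPM at 60 min, and their paralogs share sequence. With a filter of 5 TPM in 2 libraries 136 of the 262 were tested and 78 fell, and of the list of 30, 17 were tested and 12 fell. In separate libraries 230 of 261 lay lower in both 1 hr than in both 0 hr libraries of lipid A (88.1%, beside 65% of all tested genes), and 232 of 262 did so with LPS (88.5%, beside 54.2%).

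**Figure D4:**
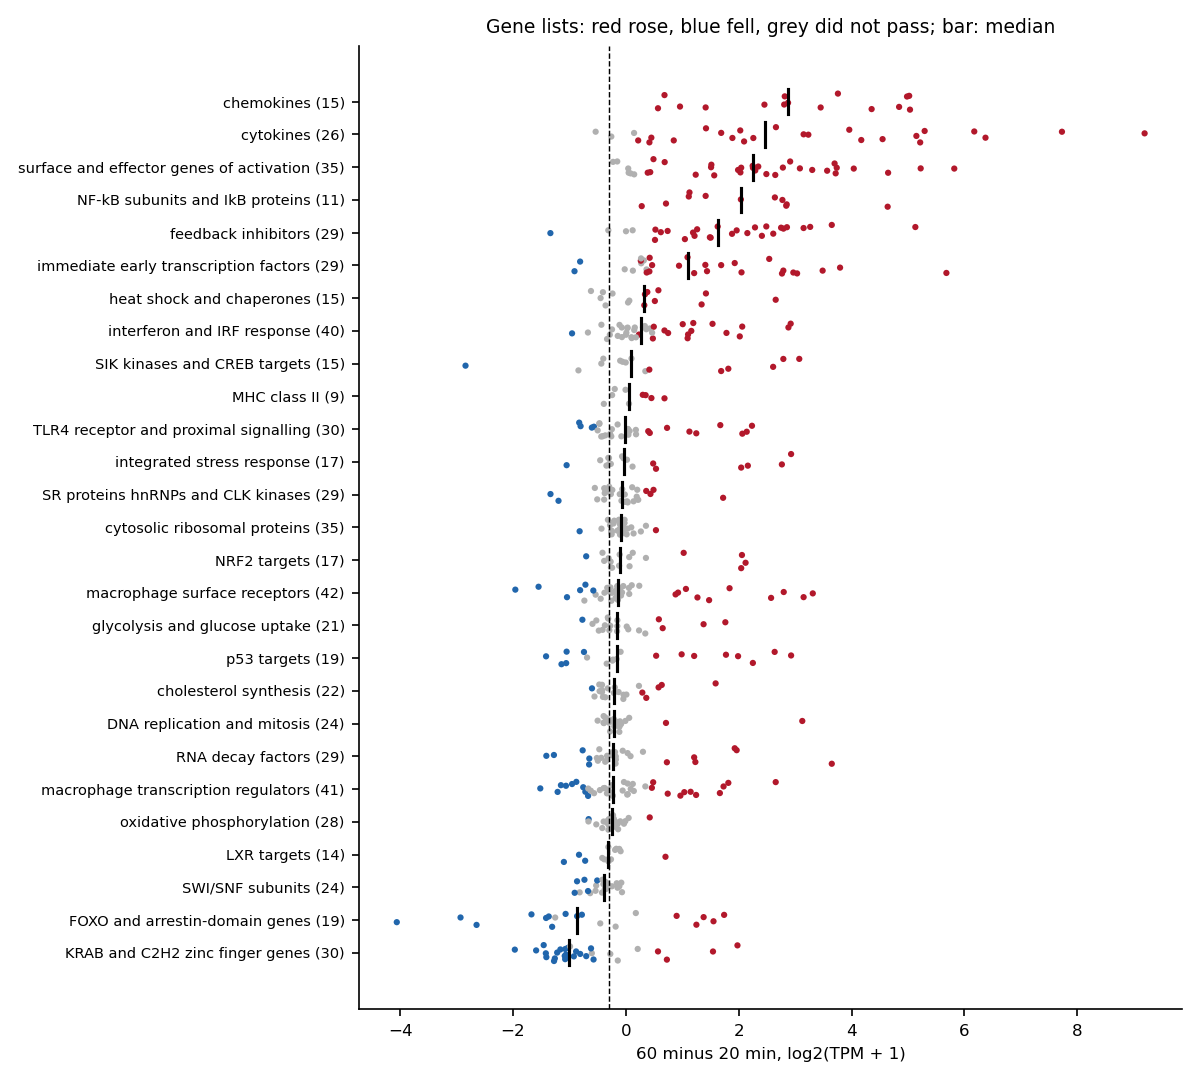
Differences between 60 and 20 min (log2 of TPM + 1, horizontal) of the tested members of each gene list, 1 point per gene, with a bar at the list median and a dashed line at the all-gene median of -0.30. Cytokine, chemokine, effector and NF-kB lists lie almost wholly to the right, zinc finger genes mostly to the left, and ribosomal and oxidative phosphorylation genes close to the dashed line.

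Stress lists moved in part, beside 7.34% of all tested genes rising and 16.8% falling. The falls in the integrated stress response and NRF2 lists lie under that share. Among p53 targets 8 of 21 rose and 5 fell: the cell-cycle inhibitor Cdkn1a went from 292 and 262 TPM to 1777 and 1678 TPM (2.64 ± 0.07) and Mdm2 from 43.3 and 38.3 TPM to 189.8 and 206 TPM (2.25 ± 0.09), while Sesn1 went from 182 and 182 TPM to 66 and 69 TPM (-1.41 ± 0.08) and Bbc3, which encodes PUMA, from 19.6 and 21.3 TPM to 9.2 and 8.27 TPM (-1.14 ± 0.11). In the integrated stress response list 6 of 20 rose, led by Gdf15 (2.93 ± 0.16) and Nupr1 (2.77 ± 0.17), and 1 fell. Of 17 NRF2 targets 4 rose, among them Txnrd1 (2.12 ± 0.09) and Sqstm1 (2.06 ± 0.07), and 1, Osgin1 (-0.70 ± 0.09), fell. Heat shock and chaperone genes rose in 8 of 16 cases (median 0.33), but 3 of these, Hsp90aa1, Dnajb9 and Dnajb1, lost their call when single libraries were left out, and 5 rose without 20 min replicate 1, 20 min replicate 2 or 60 min replicate 2. Dnajb4 went from 5.54 and 5.97 TPM to 39.7 and 43.4 TPM (2.66 ± 0.11).

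Cell-cycle genes did not move together, and their share of rises lay near the 7.34% of all tested genes. Of 25 replication and mitosis genes 2 rose, none fell and 22 did not pass: Mki67, the marker of cycling cells, went from 5.96 and 6.7 TPM at 20 min to 58.8 and 67.5 TPM at 60 min (3.13 ± 0.15, adjusted p = 1.8e-09) and Pcna from 86.9 and 84.9 TPM to 141 and 141 TPM (0.71 ± 0.09). Top2a, which marks the same cycling cells, stood at 6.65 and 7.26 TPM and then 5.77 and 6.98 TPM (-0.11 ± 0.14, adjusted p = 0.5), and Cdk1 at 6.3 and 5.89 TPM and then 5.11 and 5.12 TPM. The Mki67 libraries at 60 min lay above all at 0 and 20 min.

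Glucose uptake genes Slc2a6 (1.76 ± 0.10) and Slc2a1 (1.38 ± 0.09) rose, as did Hk2 (0.65 ± 0.13) and the lactate exporter Slc16a3 (0.58 ± 0.08), whereas 16 of the 21 glycolysis genes did not pass and 1, Pfkfb4 (-0.77 ± 0.07), fell. For all lists of this paragraph the shares over all tested genes are 7.34% rising and 16.8% falling. The falls of the glycolysis, sterol and splicing lists lie under the latter. In sterol synthesis 5 of 24 rose, led by Insig1 (1.59 ± 0.12), which retains the sterol sensor in the endoplasmic reticulum, and 1 fell. Only 3 rose without 20 min replicate 1, 20 min replicate 2 or 60 min replicate 1, and 0 fell without replicate 2 of either time. Ribosomal protein genes (1 of 36 rose, 1 fell, median -0.09) and oxidative phosphorylation genes (1 of 28 rose, 1 fell, median -0.24) mostly did not pass. The ribosomal rise and the oxidative phosphorylation fall were lost without some of the libraries. The ribosomal fall and the oxidative phosphorylation rise were kept whichever control library was left out. After rescaling, medians near the all-gene value turned positive: 0.22 for ribosomal protein genes, 0.09 for oxidative phosphorylation, 0.28 for TLR4 signalling, 0.11 for the transcription regulators and 0.20 for the surface receptors. Splicing factors gave 4 risen and 2 fallen genes of 29, among them the kinase genes Clk1, from 47.2 and 40.9 TPM to 149 and 146 TPM (1.72 ± 0.09) after falling between 0 and 20 min (-0.69), and Clk2, from 17.3 and 18.7 TPM to 7.1 and 7.52 TPM (-1.19 ± 0.11). Of 27 SWI/SNF subunit genes 24 were tested, with a median of -0.39 as deposited and -0.098 after rescaling. None rose and 5 fell, while 16.8% of all tested genes fell. Those that fell were Bicra (-0.91 ± 0.17), Smarcd1 (-0.87 ± 0.08), Bicral (-0.73 ± 0.16), Smarcd2 (-0.67 ± 0.06) and Brd7 (-0.51 ± 0.07). The calls of Bicral, Brd7 and Bicra were lost when single control libraries were left out, whereas those of Smarcd1 and Smarcd2 were kept: 3 fell without replicate 1 of either time, and 2 without replicate 2 of either time. Without the BRM014 libraries 9 fell. Smarca4, the main ATPase, was at 30.1 and 32 TPM and then 23.1 and 24.4 TPM (-0.37 ± 0.11) and did not pass after rescaling (adjusted p = 0.76). MHC class II genes rose in 4 of 10 cases, Cd74 (0.68 ± 0.09) most, with none falling; without 20 min replicate 2 or 60 min replicate 1 it was 2 that rose.

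The genes that rose by at least 1 had a median genomic span of 10.8 kb and those that fell by at least 1 of 8.85 kb, beside 18.7 kb over all tested genes. A span over 50 kb was found in 27 of the 379 risen genes (7.12%) and 13 of the 468 fallen genes (2.78%), beside 21.3% of all tested genes. Their spliced lengths differed less, with medians of 2453 bases, 2838 bases and 2618 bases. These are descriptions with no test.

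The labelled cell type was checked against its markers. All 10 macrophage markers were detected, with a summed level of 37561 and 33380 TPM at 20 min and 35929 and 35303 TPM at 60 min. Granulocyte markers summed to 492 and 483 TPM and then 479 and 500.4 TPM, mostly S100a9 and S100a8, and 0 of 8 tested changed. Lymphocyte markers were all under the filter, erythroid and mast cell markers summed to under 1 TPM, and stromal markers to 4.14 to 6.32 TPM. Of 8 dendritic cell markers 7 were under the filter and Xcr1 rose, from 0.186 and 0.0600 TPM to 0.707 and 0.876 TPM (0.67 ± 0.13).

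Separate libraries collected at 1 hr moved the same way for most genes. Of 827 risen genes listed with lipid A at 1 hr, 733 had both 1 hr libraries above both 0 hr libraries (88.6%, beside 12.6% of all tested genes), and of 1882 fallen genes 1797 had both below (95.5%, beside 65%). With LPS in Arid1a f/f cells the counts were 770 of 848 (90.8%, beside 25.6%) and 1783 of 1942 (91.8%, beside 54.2%). These libraries start at 0 and not at 20 min, so they do not isolate the same interval. Of the 48 named genes that fell, 4 had a mean above 0 hr at 1 hr in at least 1 of these experiments. Fos, which was still above its 0 min level at 60 min in the early course, differed by 1.74 with lipid A and 2.26 with LPS between 0 and 1 hr. Dusp6 differed by -0.66 and 0.94, Rpph1 by 0.82 and -1.20 and Mir142 by -1.25 and 0.19.

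Cells given a compound supplied other libraries at the same times. Of the 848 genes that rose in controls, 638 also rose with ACBI1 (75.2%, beside 13% of all genes), 540 with BRDK98 (63.7%, beside 8.39%) and 400 with BRM014 (47.2%, beside 7.6%), while 67 fell with BRM014. Of the 1942 that fell in controls, 1442 fell with ACBI1 (74.3%, beside 28.2%), 1390 with BRDK98 (71.6%, beside 18.8%) and 1087 with BRM014 (56%, beside 16.8%). The 60 min BRM014 libraries differed from each other more than any other pair, with an SD of 0.287. The 60 minus 20 min difference itself was higher with ACBI1 than in controls for 1082 genes (9.37%) and lower for 1108 (9.59%). It was higher with BRM014 for 801 (6.94%) and lower for 742 (6.42%), a total of 1543 that became 3762 without 60 min BRM014 replicate 2 and 2090 without replicate 1. With BRDK98 it was higher for 411 (3.56%) and lower for 357 (3.09%). These 3 contrasts share the control libraries and are not independent of each other.

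**Figure D5:**
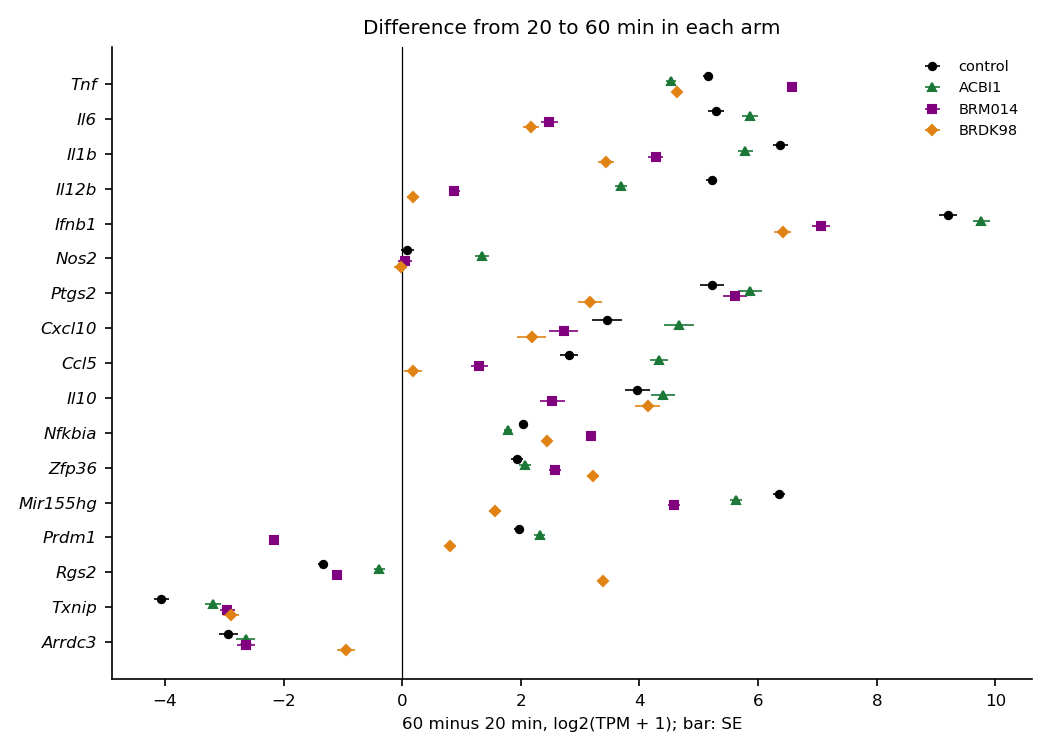
Difference between 60 and 20 min (log2 of TPM + 1, with standard error) of 17 genes in control cells and in cells given ACBI1, BRM014 or BRDK98. Il12b lies at 5.22 in controls and 0.18 with BRDK98, Rgs2 at -1.34 and 3.39, and Prdm1 at 1.97 in controls and -2.16 with BRM014.

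Cytokine genes that rose between 20 and 60 min in controls differed by compound. Il12b was at 42 and 37.9 TPM at 60 min in controls, at 14.6 and 14.5 TPM with ACBI1, 1.32 and 1.05 TPM with BRM014 and 0.171 and 0.296 TPM with BRDK98. Its 60 minus 20 min difference was -1.53 ± 0.14, -4.34 ± 0.14 and -5.04 ± 0.14 relative to controls, each past the threshold. For Ifnb1 the difference relative to controls was -2.14 ± 0.21 with BRM014 and -2.78 ± 0.21 with BRDK98, both past the threshold. With ACBI1 it was 0.57 ± 0.21, which did not pass (adjusted p = 0.062). Ifnb1 was under 1 TPM at 20 min in each of these groups, 0.398 and 0.418 TPM in controls and 0.091 and 0.083 TPM with BRM014. With a pseudocount of 1 its values therefore follow the 60 min levels, 988 and 688 TPM in controls and 153 and 135 TPM with BRM014. They do not measure a smaller fold. The Il10 difference was lower relative to controls with BRM014 (-1.43 ± 0.30). It did not pass with ACBI1 (0.44 ± 0.30) or BRDK98 (0.18 ± 0.30), whose 95% intervals are -0.21 to 1.08 and -0.47 to 0.82. With BRDK98 the Il10 level was nonetheless below controls at both times. It was at 6.045 and 6.363 TPM and then 113 and 140 TPM, beside 41.4 and 34.7 TPM and then 644 and 567 TPM in controls.

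Rgs2 and Prdm1 went the opposite way with a compound. Rgs2, which fell in controls, was at 33.4 and 36.3 TPM at 20 min and 354 and 394 TPM at 60 min with BRDK98 (3.39 ± 0.09). Prdm1, which encodes the repressor BLIMP-1, went from 13.1 and 12.7 TPM to 54.7 and 52.3 TPM in controls and from 10.2 and 9.7 TPM to 1.36 and 1.54 TPM with BRM014 (-2.16 ± 0.09). Mir155hg rose with BRDK98 too, but less than in controls: it was at 2.14 and 2.5 TPM at 60 min (1.56 ± 0.10), beside 101 and 108 TPM in controls. In these 3 genes the 60 min libraries with the compound did not overlap those of the controls.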

How the data were processed

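Poly(A) RNA of BMDMs was sequenced with a TruSeq Stranded mRNA kit in 50 bp single reads, per the labels' protocols. STAR 2.5.3a, HOMER, DESeq2 and GRCm38/mm10 are named in the submitters' processing notes. The deposited values are TPM made by the authors with HOMER from exon reads of RefSeq genes counted on both strands, per the file headers, so reads of overlapping genes on opposite strands were not separated. Exonic reads per library were recovered from the TPM steps and exon lengths (tolerance 0.1 read) and were used for depth and for limma voom as an alternative. TPM plus a pseudocount of 1 were log2-transformed and fitted with limma 3.58.1 (trend and robust moderation, R 4.3.3) over 9 groups of 2 libraries. The same was done after median-ratio scaling, and both had to pass. The fit was tested on simulated data. Figures and summaries used Python 3.11.15, pandas 2.3.3, numpy 2.4.6 and matplotlib 3.10.9.

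The members and gene lists were chosen with earlier results of these data known. Named genes are 10 chosen cytokine and effector genes, the 15 largest changes each way at a mean of 10 TPM or more with groups that do not overlap, per list the first 6 members as written and up to 6 called members with the largest change (mean of at least 5 TPM), the 4 largest differences per compound and the 6 steepest decreases. Genes outside this rule were named after their values were seen: Atf3, Bbc3, Ccng2, Cdk1, Csf2, Egr1, Ier2, Ifna2, Il1rn, Il23a, Irs2, Klf10, Mx1, Nfe2l2, P2ry6, Pnrc1, Ticam2, Tirap, Top2a, Zfp729b, Zfp748 and Zfp790. Alternatives were other pseudocounts, filters, scalings, group sets, a replicate block, voom and leaving out each library. The file columns held 14 per-sample columns of other groups that were not used here.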

Additional observations from a re-analysis of the deposited data

Results flagged for a closer look

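For 30 results the change between 20 and 60 min differed between cells given a compound and controls, by a test of the difference itself in limma (adjusted p under 0.05 on both scalings, n = 2 libraries per group). Values are the log2 difference with the compound minus that in controls. For genes under 1 TPM at 20 min, such as Ifnb1 and Il6, the pseudocount of 1 makes this value follow the 60 min level more than the fold. All contrasts share the 4 control libraries.

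With ACBI1 the 4 largest values were those of Ifit1bl1 at 4.00, Gbp4, an interferon-induced GTPase gene, at 3.35, AW112010 at 3.29 and Tnfsf10, which encodes TRAIL, at 3.22. Ifit1bl1 was at 67.2 and 48.5 TPM at 20 min and 69.6 and 41.4 TPM at 60 min in controls, and at 51 and 38.1 TPM and then 618 and 746 TPM with ACBI1. Ccl5 differed by 1.52, Cxcl10 by 1.22 and Il6 by 0.57, and lower values were found for Tnf at -0.61 and Il12b at -1.53. Nos2 differed by 1.26, but it passed the filter only through the 60 min ACBI1 libraries, at 1.43 and 1.78 TPM. Its test is therefore circular, and no conclusion is drawn from it.

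With BRM014 Arc, a neuronal immediate early gene, differed by 4.96: it was at 0.243 and 0.262 TPM and then 1.12 and 1.47 TPM in controls, and at 0.205 and 0.229 TPM and then 48 and 96.4 TPM with BRM014. Tnf differed by 1.42, but its level was below controls at both times. It was at 160.2 and 158 TPM and then 5672 and 5684 TPM in controls. With BRM014 it was at 44.3 and 45 TPM and then 4325 and 4328 TPM. Lower values were Gm6377 at -4.42, Il12b at -4.34, Prdm1 at -4.13, Il6 at -2.81, Ifnb1 at -2.14, Il1b at -2.10, Ccl5 at -1.50 and Il10 at -1.43. Gm6377 overlaps Sh3bgrl.

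With BRDK98 Rgs2 differed by 4.72 and Alkbh5, an RNA demethylase gene, by 4.41. Alkbh5 was at 30.4 and 32.6 TPM and then 34.5 and 40.3 TPM in controls, and at 28.1 and 29.4 TPM and then 728 and 762 TPM with BRDK98. Lower values were Il12b at -5.04, Mir155hg at -4.79, Il6 at -3.13, Il1b at -2.94, Ifnb1 at -2.78, Ccl5 at -2.62, Ptgs2 at -2.06 and Tnf at -0.52. The Ptgs2 value was 0.046 with limma voom.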

How the results depend on the processing

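The 848 genes that rose became 705 to 761 when 1 control library was left out, 1718 on rescaled TPM alone and 379 with a log2 difference of at least 1. The 1942 that fell became 1326 to 1419, 5788 on deposited TPM alone and 468 in the same settings. Under the remaining alternatives the counts were 750 to 975 and 1522 to 2550, the last without the 4 BRM014 libraries, a setting added after seeing the data that gave 972 risen genes. The counts of genes whose difference depended on the compound were 2190 with ACBI1 (1486 to 1812 with a control library left out), 1543 with BRM014 (1064 to 3762) and 768 with BRDK98 (562 to 642); the 3762 are without 60 min BRM014 replicate 2, and the cause was not tested. Of 271 named genes 188 were called. Among the called genes 162 kept their call under every alternative run and 0 changed direction. On rescaled TPM alone, 6 named genes without a call were called with the opposite sign. Ptgs2 with BRDK98 relative to controls went from -2.06 to 0.046 with limma voom. Its 20 min levels with BRDK98 were 0.085 and 0.183 TPM, under the pseudocount of 1, so the -2.06 does not measure a smaller fold. The cause of the change was not tested. Deviations of same-numbered replicates correlated between -0.239 and 0.236 over 36 pairs of groups (0.082 for the 20 and 60 min controls), with 11 above 0.1, so the replicate numbers were not taken as pairs. With a replicate block 850 genes rose and 1913 fell, and the counts for ACBI1, BRM014 and BRDK98 were 2197, 1511 and 767. Depth limits the genes with a few reads at 20 min, such as Il6 and Ifnb1, whose folds are known only loosely.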

Other observations

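The genes that lost most TPM between 20 and 60 min, by absolute amount, included several outside the gene lists. After Txnip, Fos and Gm15441, the antisense transcript of Txnip, these were Igfbp4, a binding protein of insulin-like growth factors, from a mean of 378 to 228 TPM (-0.73 ± 0.07), Dhrs3, a retinal reductase, from 296 to 153 TPM (-0.95 ± 0.11), and Tnfaip8l2 (TIPE2), a negative regulator of immune signalling, from 227 to 89.3 TPM (-1.34 ± 0.08). Cd300lb, an activating receptor of myeloid cells, went from 195 to 74.1 TPM (-1.39 ± 0.10), and Apobec1, a cytidine deaminase of RNA, from 331 to 216 TPM (-0.61 ± 0.07). Each fell on both scalings in the limma fit, and all were chosen for their size of change after their values were seen.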
